A study of Mus musculus with 3 samples.

Results

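Sphingosine 1-phosphate is a lipid messenger, and 9 genes of its pathway were examined in glomeruli of nondiabetic mice: the receptor genes S1pr1, S1pr2, S1pr3, S1pr4 and S1pr5, the kinase genes Sphk1 and Sphk2, the lyase gene Sgpl1 and the phosphatase gene Sgpp1. They were chosen by name, as the genes that receive, make and remove the messenger, and they are 9 of the 18194 genes that the array reads with a probe set of 1 gene. A total of 17 probe sets read them, and 6 of the 9 genes have more than 1. The samples are 3 male FVB/NJ mice without diabetes, killed at 8 weeks of age and kept on a standard rodent chow, and each gave 1 Affymetrix array of RNA from its pooled isolated glomeruli. The series was designed around a comparison with diabetic OVE26 mice, which were not analysed here. All 3 arrays belong to 1 group with no stated allele or agent, so the values describe expression in FVB glomeruli and its spread between mice.

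Sphingosine 1-phosphate is made inside cells when a sphingosine kinase phosphorylates sphingosine, a product of ceramide breakdown. It is returned to sphingosine by phosphatases or cleaved for good by the lyase. Exported molecules circulate in blood bound to carriers and act on 5 G protein-coupled receptors. The pathway is best known for endothelial barrier function and for the exit of lymphocytes from lymphoid tissue. In humans, loss of the lyase gene SGPL1 causes a form of nephrotic syndrome with adrenal insufficiency.

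Values are log2 expression values from GCRMA, which gives 1 number per probe set, and errors are SD over the 3 mice. An empirical background was taken from 80 probe sets that read olfactory or vomeronasal receptor genes (the floor probe sets), and their 95th percentile on each array gave thresholds of 2.58, 2.91 and 2.86 for mice 1, 2 and 3. A gene was represented by its brightest probe set and called above background when all 3 arrays exceeded their thresholds. The arrays had medians between 2.82 and 2.85. Their 18 spike-in control probe sets were all highest on the array of mouse 2, with medians of 11.62, 12.14 and 11.51 for mice 1, 2 and 3. Defining markers of the glomerulus were measured, since every podocyte (7), endothelial (10) and mesangial (7) marker with a probe set lay above background. Markers of other cells differed between the isolates. The summed level of the 10 proximal tubule markers was 9.91, 10.25 and 11.57 (log2) in mice 1, 2 and 3, and that of the 10 lymphocyte and granulocyte markers was 8.49, 7.57 and 6.67. The actin control, whose 3′ minus 5′ difference reflects RNA quality, stood at 1.49, 1.81 and 2.05. The same difference for the Gapdh control was 0.48, 1.08 and 0.92, so the controls ordered mice 2 and 3 differently.

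Of the 9 sphingosine phosphate genes, 7 were above background in all 3 mice. They were 4 of the 5 receptor genes, S1pr1, S1pr2, S1pr3 and S1pr4, and 3 of the 4 enzyme genes, Sphk2, Sgpl1 and Sgpp1. The shares over all genes were 58.3% above background in every mouse, 35.3% below it in every mouse and 6.35% with calls that differed between mice. Sphk1 was below background in all mice and S1pr5 was above it in mouse 1 only. At the level of single probe sets, 11 of 17 were above background on all arrays, 3 were below it on all and 3 differed between arrays. Of all 45101 probe sets, 24578, 22095 and 22319 were above the thresholds of mice 1, 2 and 3. These counts are per array, and the share above background on all arrays together was not computed for probe sets.

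**Figure D1:**
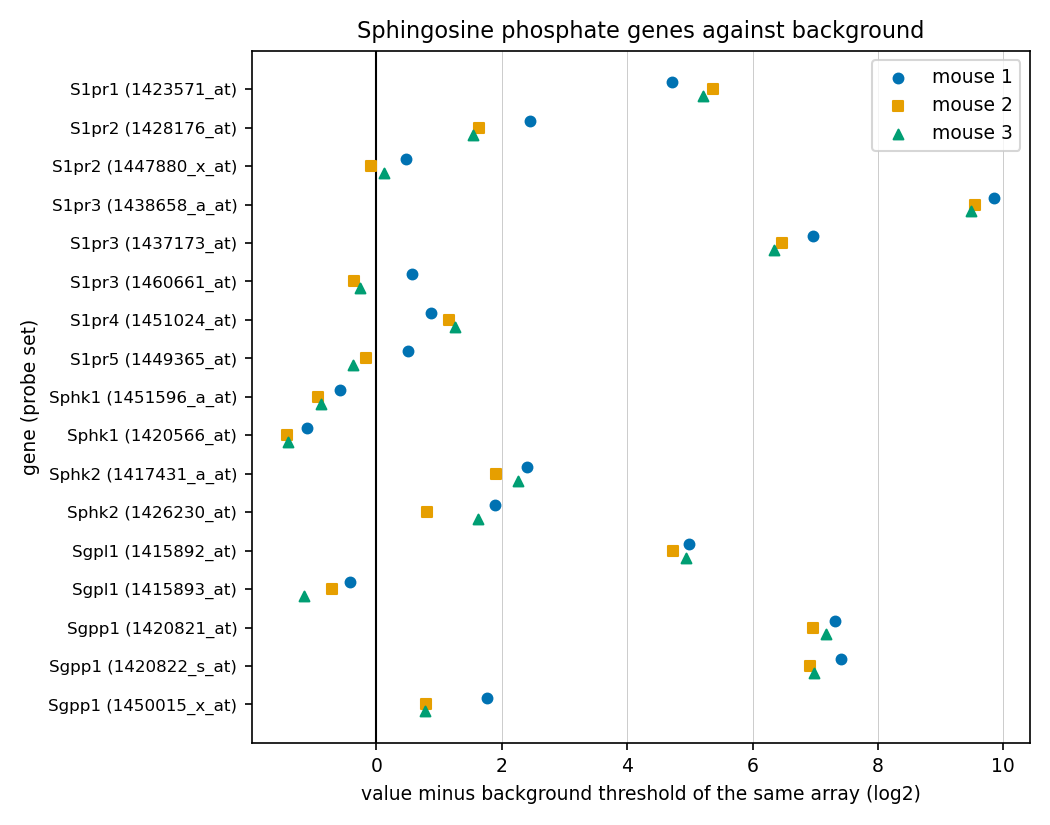
Each of the 17 probe sets of the 9 genes is drawn as its log2 value minus the background threshold of the same array, with 1 point per mouse and the threshold at 0. The brightest S1pr3 probe set lies more than 9 log2 units above the threshold in every mouse, both Sphk1 probe sets lie below it in every mouse, and points of mouse 1 are shifted to the right by its lower threshold (2.58, against 2.91 and 2.86).

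Among the receptors, S1pr3 had the smallest SD over the 3 mice, though without mouse 1 that of S1pr4 was smaller (0.09 for S1pr3 and 0.03 for S1pr4). S1PR3 couples to several classes of G protein and is known from vascular smooth muscle and endothelium. Its brightest probe set, 1438658_a_at, was at 12.44, 12.47 and 12.35 in mice 1, 2 and 3, a mean of 12.42 ± 0.06 (SD, n = 3). The mice thus lay within 1.09-fold of each other, and limma fitted an SD of 0.10 for genes of that level. A further probe set, 1437173_at, was at 9.55, 9.39 and 9.20, again with its lowest value in mouse 3. The third, 1460661_at, was at 3.15, 2.56 and 2.60 and exceeded the background threshold in mouse 1 only. The S1pr3 probe sets therefore differed in whether they detected the transcript.

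S1pr1 had the widest spread of the 9 genes over the 3 mice. S1PR1 signals through inhibitory G proteins and is the main receptor of endothelial cells for barrier function. Its only probe set, 1423571_at, was at 7.30, 8.28 and 8.06 in mice 1, 2 and 3, a mean of 7.88 ± 0.51 (SD, n = 3). Mouse 1 was the low sample, by 0.87 below the mean of the other mice, which were 0.22 apart. The range over the mice was 1.97-fold, just under the 2-fold range that 5.94% of the 10610 tested genes reached, and 6.36% of these genes had a larger SD.

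Spread between mice was tested with limma, which set the variance of each gene over the 3 arrays against the variances of all tested genes of like level. For S1pr1 the SD of 0.51 compared with a fitted SD of 0.17, and limma's one-sided test gave an adjusted p of 0.97 (Benjamini-Hochberg over all tested genes). Before adjustment S1pr1 lay just under 0.05, as did 4.66% of the tested genes. The limma test called 0 of 10610 genes (0%) after adjustment, and 0 of the 7 members. Lack of a call therefore does not show that any of these genes is even between mice. Without mouse 1, the SD of S1pr1 was 0.16, below that of Sphk2 (0.20).

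Other measures also differed in mouse 1, where S1pr1 was lowest. Of the 10 endothelial markers, 7 were highest there and 1 lowest, and their summed level was 15.21, 15.01 and 15.03 (log2) in mice 1, 2 and 3. The VEGF receptor gene Kdr was at 12.60, 12.47 and 12.39 in these mice, and Ehd3, an endocytic gene of glomerular endothelium, at 13.36, 13.26 and 13.30. The order of the mice for S1pr1 was not that of the summed endothelial list, but single genes of the list differed. Plvap had the order of S1pr1, at 8.92, 9.18 and 9.08 in mice 1, 2 and 3. Tek and Tie1 were highest in mouse 3. Plvap, Tek and Tie1 were named after their values were seen. Of the 9 proximal tubule markers above background, 8 were lowest in mouse 1, as were 5 of 6 loop and distal tubule markers, whose list summed to 12.75, 13.96 and 13.38 (log2). The actin 3′ minus 5′ difference was lowest there too (1.49). Their part in the low S1pr1 value was not tested. In bulk tissue, fewer cells of a type and less RNA per cell cannot be told apart.

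**Figure D2:**
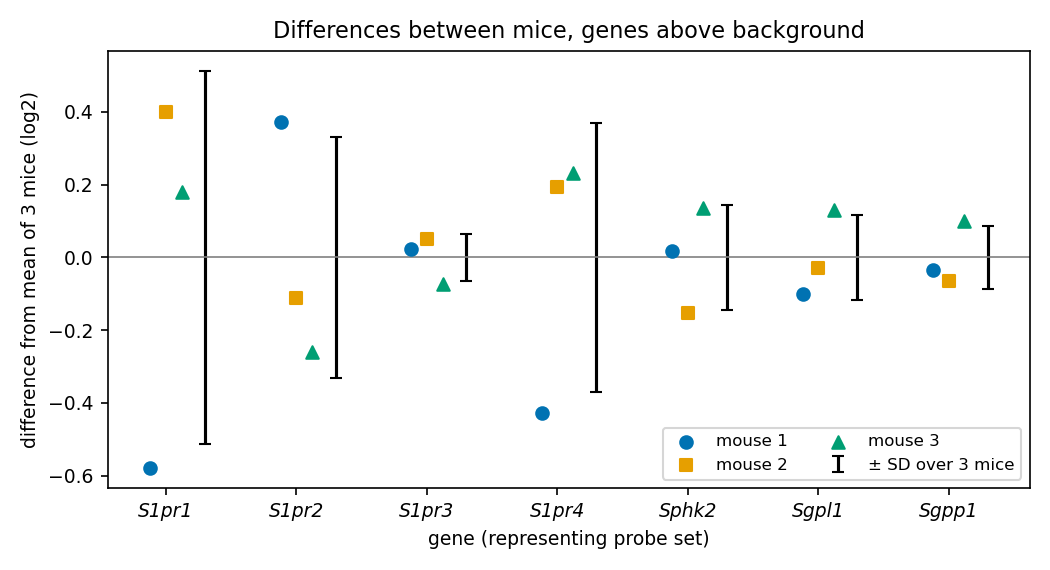
Points show the log2 difference of each mouse from the mean of the 3 mice for the 7 genes above background, and black bars span ± SD over the 3 mice. S1pr1 and S1pr4 have mouse 1 as their lowest point and S1pr2 has it as its highest, while S1pr3, Sphk2, Sgpl1 and Sgpp1 keep all mice within 0.29 of each other.

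S1pr2 was highest in the mouse where S1pr1 was lowest. S1PR2 couples to G12 and G13 proteins, and it counters the migration that S1PR1 promotes. Its brightest probe set, 1428176_at, was at 5.03, 4.55 and 4.40 in mice 1, 2 and 3, a mean of 4.66 ± 0.33 (SD, n = 3). Mouse 1 was the high sample, by 0.56 above the mean of the other mice, and the range was 1.55-fold. The limma test gave an adjusted p of 0.97. The other probe set, 1447880_x_at, was at 3.05, 2.83 and 2.98 and was above background in mice 1 and 3 only. It too was highest in mouse 1, with mouse 3 close to it. The summed level of the macrophage list was 10.25, 9.42 and 8.71 in mice 1, 2 and 3, with 5 of 8 genes above background. That of the lymphocyte and granulocyte list was 8.49, 7.57 and 6.67, with 4 of 10. Both had the same order of the mice as the brighter S1pr2 probe set, as had the arteriolar smooth muscle list (12.380, 12.377 and 11.976), unlike the other marker lists. Of the genes above background in the macrophage and the lymphocyte and granulocyte lists, 4 of 5 and 3 of 4 were highest in mouse 1. These lists were named for their order after their values were seen, and their part in the S1pr2 values was not tested.

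Of the receptors encoded by S1pr4 and S1pr5, S1PR4 is known mainly from lymphoid and myeloid cells and S1PR5 from natural killer cells and oligodendrocytes. S1pr4 was at 3.46, 4.08 and 4.12 in mice 1, 2 and 3, a mean of 3.88 ± 0.37 (SD, n = 3), with an adjusted p of 0.97 from limma. Mouse 1 was again the low sample, by 0.64, and mice 2 and 3 nearly coincided. S1pr4 was 0.87, 1.16 and 1.26 above the thresholds of the 3 arrays. Of the 80 floor probe sets, 1, 0 and 0 were brighter, so its call rests on a small margin. When the brightest of these probe sets served as the threshold, S1pr4 was not called, with 6 of 9 members left.

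Summed leukocyte marker levels were highest in mouse 1, where S1pr4 was lowest, though not every single marker was. The summed level of the macrophage list was 10.25, 9.42 and 8.71 (log2) in mice 1, 2 and 3. Csf1r of that list, named after its values were seen, was highest in mouse 2, at 8.01, 8.23 and 7.69. Of 10 measured lymphocyte and granulocyte markers 4 were above background in each mouse, and 3 of the 4 were highest in mouse 1. Cd3e of T cells lay below background in each mouse, as did Cd3g of T cells, Cd79a of B cells and Nkg7 of cytotoxic cells, which were named after their values were seen. Others of the list, named in the same way, were detected. Ms4a1 of B cells was above background in mouse 2 only (3.22) and Gzma of cytotoxic cells in mouse 1 only (3.42). Ighm of B cells was above it in each mouse, at 3.63, 3.91 and 3.62. Ptprc, the pan-leukocyte phosphatase gene, was at 7.43, 6.58 and 5.13. The part of these cells in the S1pr4 values was not tested. S1pr4 itself lay near the floor, so its order of the mice is not firm.

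S1pr5 was at 3.09, 2.75 and 2.48 in mice 1, 2 and 3, a mean of 2.77 ± 0.31 (SD, n = 3). Its differences from the thresholds were 0.51, −0.17 and −0.38. Of the 80 floor probe sets, 3, 5 and 7 were brighter. With the threshold at the 90th percentile of these probe sets, S1pr5 was called in all mice, and 8 of 9 members were above background. Values this close to the floor have no firm order between mice.

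**Figure D3:**
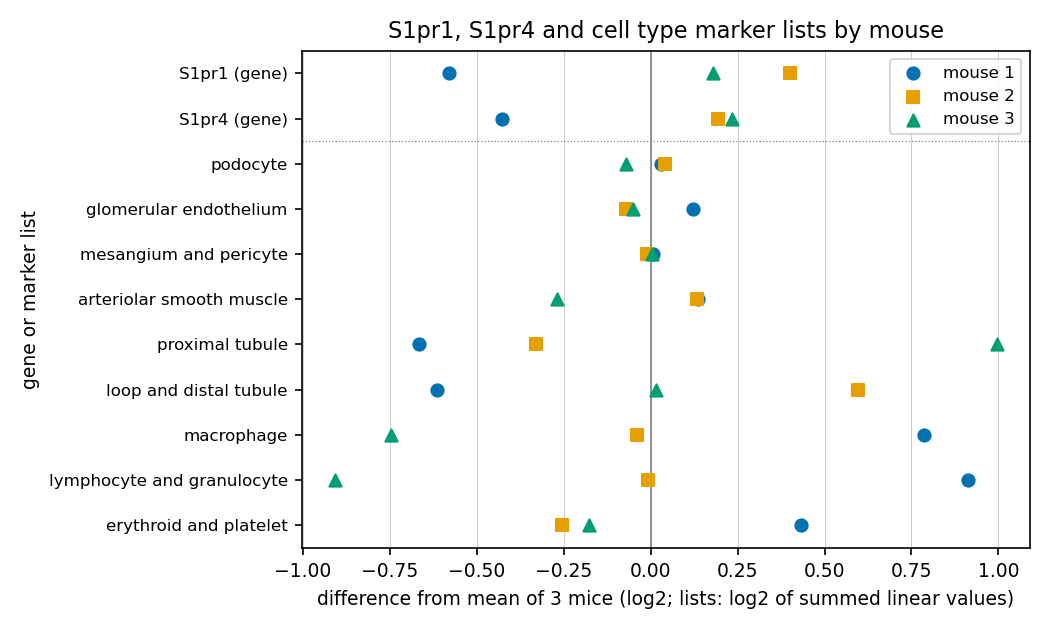
Points show the log2 difference of each mouse from the mean of the 3 mice for S1pr1 and S1pr4 (above the dotted line) and for the summed linear values of each cell type marker list (below it). Mouse 1 is lowest for both receptor genes and for both tubule lists, and highest for the endothelial, macrophage, lymphocyte and erythroid lists. It is also highest, by a small margin, for the mesangium list (14.772, against 14.753 and 14.767) and the arteriolar smooth muscle list (12.380, against 12.377 and 11.976).

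The kinase genes gave opposite detection calls. Sphk1 encodes the kinase that acts mainly in the cytosol and at the plasma membrane, and Sphk2 the one found also in the nucleus and mitochondria. The brightest Sphk1 probe set, 1451596_a_at, was at 2.003, 1.976 and 1.976 in mice 1, 2 and 3. Its second probe set, 1420566_at, gave 1.47, 1.49 and 1.44. All 6 values were below background, and 21, 18 and 23 of the 80 floor probe sets were brighter than 1451596_a_at. Its values in mice 2 and 3 were identical, as happened for 2.18% of all probe sets, so its SD of 0.02 says little. Sphk1 was thus not detectable at the signal of these arrays, which does not show that it is absent.

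Sphk2 was detected by both of its probe sets in all mice. The brighter one, 1417431_a_at, was at 4.99, 4.82 and 5.11 in mice 1, 2 and 3, a mean of 4.98 ± 0.15 (SD, n = 3), with an adjusted p of 0.99 from limma. The other, 1426230_at, was at 4.47, 3.73 and 4.47. Mouse 2 was the low sample in both, by 0.23 below the mean of the other mice for the brighter probe set, and the ranges were 1.22-fold and 1.68-fold.

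By their brightest probe sets, the genes for removal of sphingosine 1-phosphate had low SDs over the 3 mice. Sgpl1, whose lyase makes the irreversible cut, was at 7.57, 7.64 and 7.80 in mice 1, 2 and 3, a mean of 7.67 ± 0.12 (SD, n = 3), by probe set 1415892_at. The mice lay within 1.17-fold of each other, and the adjusted p of limma was 0.98. The other Sgpl1 probe set, 1415893_at, was at 2.16, 2.20 and 1.70 and was below background in all mice, so the 2 sets disagreed on detection.

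Sgpp1 encodes a phosphatase of the endoplasmic reticulum that returns sphingosine 1-phosphate to sphingosine. Its brightest probe set, 1420821_at, was at 9.90, 9.87 and 10.04 in mice 1, 2 and 3, a mean of 9.94 ± 0.09 (SD, n = 3), with an adjusted p of 0.98 from limma. The probe set 1420822_s_at was at 9.999, 9.82 and 9.84. The third, 1450015_x_at, was at 4.35, 3.70 and 3.63. All 3 were above background in all mice, but the first was highest in mouse 3 and the others in mouse 1. The mice therefore had no common order for Sgpp1, and the first 2 sets kept them within 1.12-fold and 1.13-fold. The third had a range of 1.65-fold and an SD of 0.40.

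The spread of the members was set beside that of all genes. Over all 9 members the median SD was 0.145, and over all 18194 genes it was 0.145. Of the 7 members above background, S1pr1, S1pr2 and S1pr4 had an SD over the upper quartile of all tested genes (0.260), and the other 4 lay below the median of 0.157. Mouse 1 was the outer sample for these 3 genes, and leaving out the outer sample must lower an SD. Without mouse 1 the SDs of S1pr1, S1pr2 and S1pr4 were 0.16, 0.11 and 0.03. Without mouse 3 they were 0.69, 0.34 and 0.44. The upper quartile was not computed anew for 2 mice. With the mean over its probe sets, S1pr2 was not over the quartile of 0.260, with an SD of 0.20. The rank of S1pr3, which had the lowest SD of the 7 (0.06), was lost after centring of the arrays, where it was at 0.12 and Sgpp1, Sgpl1 and Sphk2 were at 0.03, 0.06 and 0.11. It was also lost with the mean over probe sets, where S1pr3 was at 0.17, Sgpp1 at 0.16 and Sgpl1 at 0.09. No common order of the mice was seen. Of these 7 genes, 1, 2 and 4 were highest in mice 1, 2 and 3, where the shares over all tested genes were 34%, 28.2% and 36.3%. The count of 3 genes lowest in mouse 1 stood beside a share of 32%.

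**Figure D4:**
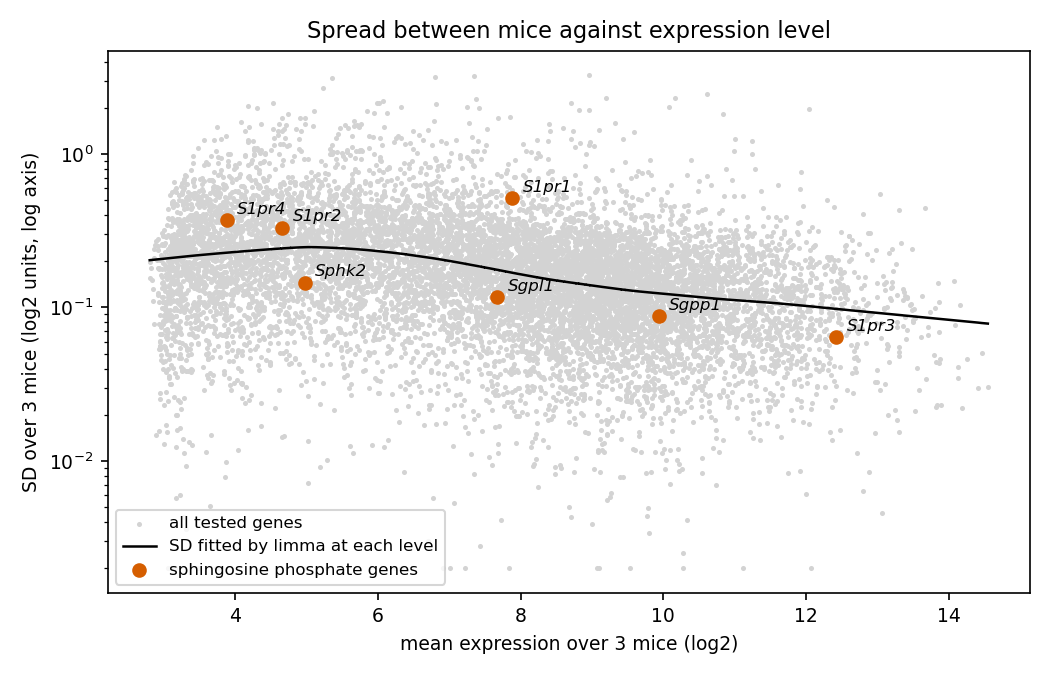
The SD over 3 mice (log2 units, drawn on a log axis) is plotted against mean log2 expression for the 10610 tested genes in grey, with the SD fitted by limma as a line and the 7 sphingosine phosphate genes above background in orange. S1pr1, S1pr2 and S1pr4 lie above the line and the other 4 below it, all within the cloud of grey points, of which 20 with an SD under 0.002 are drawn at that value.

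The sequences around the transcription starts were compared, which the choice of the genes by name did not use. Windows of 300 bases from RefSeq (250 bases before to 50 after a start, GRCm38.p6) were used for 8 of the 9 genes, 13 windows in all, and no window of S1pr1 was used here. Of these, 4 are shown: that of S1pr3, the receptor gene with the lowest SD over the 3 mice, that of S1pr4, which has the fewest CpG dinucleotides, and those of S1pr2 and Sphk2 that share a motif. They are printed 5′ to 3′ on the strand of the gene, at chr13:51408368-51408667 (+) for S1pr3, chr10:81500088-81500387 (−) for S1pr4, chr9:20976744-20977043 (−) for S1pr2 and chr7:45717953-45718252 (−) for Sphk2. Capitals mark the motifs named in the next paragraph.
S1pr3: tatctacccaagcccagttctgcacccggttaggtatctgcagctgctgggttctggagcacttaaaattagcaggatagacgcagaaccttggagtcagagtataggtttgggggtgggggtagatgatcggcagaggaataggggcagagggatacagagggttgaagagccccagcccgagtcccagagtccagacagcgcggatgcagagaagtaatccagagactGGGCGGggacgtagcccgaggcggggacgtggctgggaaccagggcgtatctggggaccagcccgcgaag
S1pr4: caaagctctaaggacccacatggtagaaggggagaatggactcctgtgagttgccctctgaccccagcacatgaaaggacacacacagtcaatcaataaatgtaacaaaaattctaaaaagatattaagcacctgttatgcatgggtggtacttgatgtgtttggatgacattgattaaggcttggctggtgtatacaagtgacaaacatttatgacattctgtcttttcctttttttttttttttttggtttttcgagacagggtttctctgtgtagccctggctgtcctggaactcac
S1pr2: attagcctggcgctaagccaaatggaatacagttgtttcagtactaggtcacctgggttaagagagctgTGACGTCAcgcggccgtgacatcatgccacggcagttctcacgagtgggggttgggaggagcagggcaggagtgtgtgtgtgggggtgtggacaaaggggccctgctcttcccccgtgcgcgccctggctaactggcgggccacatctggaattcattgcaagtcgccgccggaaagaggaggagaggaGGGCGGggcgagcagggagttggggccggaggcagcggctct
Sphk2: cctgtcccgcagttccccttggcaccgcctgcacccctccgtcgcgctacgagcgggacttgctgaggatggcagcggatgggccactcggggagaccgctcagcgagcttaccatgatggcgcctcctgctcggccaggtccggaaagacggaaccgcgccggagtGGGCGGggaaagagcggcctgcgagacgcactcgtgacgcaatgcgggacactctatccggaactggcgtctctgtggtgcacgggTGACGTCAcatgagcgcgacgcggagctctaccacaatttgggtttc

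The motifs searched, on both strands, were the cyclic AMP response element TGACGTCA, the AP-1 site TGACTCA, the GC box GGGCGG, the TATA box TATAAA, the CCAAT box CCAAT and the E-box CACGTG, which were chosen with the windows in view. The cyclic AMP response element was found in the windows of S1pr2 and Sphk2, against 2.03% of the 27025 genes that have a window. A GC box was found for S1pr2, S1pr3, S1pr5, Sphk2 and Sgpl1, and 38.2% of all genes have one. A TATA box, an AP-1 site and an E-box were found only for Sphk1 among the 8 genes, in different ones of its 5 windows, and 15.7%, 5.95% and 8.09% of all genes have one. The CCAAT box was found for Sphk1, Sphk2, Sgpl1 and Sgpp1, against 41.1% of all genes. These shares are counted per gene and are not matched for the number of windows, which is highest for Sphk1 among the 8 genes.

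Base composition differed between the members. The S1pr4 window had 41% G and C and 1 CpG, and none of the motifs. The median of all windows was 52.7% and 7 CpG. The windows of Sgpl1 and Sgpp1 had 38 and 36 CpG, that of S1pr5 27, that of S1pr2 18 and that of S1pr3 14. Sphk2 had 27 and 33 in its 2 windows, and Sphk1 had 6 to 21 in its 5. S1pr5 and Sphk1, which were not above background in all mice, thus had windows with CpG counts like those of detected members. A match of letters is a description and does not show binding.

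The other genes of the pathway were taken from 10 lists of 75 genes, of which 67 had a probe set of 1 gene. Of these 67, 54 lay above background in each mouse (80.6%, against 58.3% of all genes), 8 were below it in each mouse and 5 had calls that differed between mice. None of the 54 had a 2-fold range (5.94% of all tested genes had one), and limma called 0 of them after adjustment, with 1 at an unadjusted p under 0.05. Their median SD was 0.112, against 0.157 over all tested genes. These medians are not matched for level, and the SD fitted by limma differed with level. It was 0.10 at the level of S1pr3 (12.42) and 0.25 at that of Sphk2 (4.98).

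Genes for transport and carriage of sphingosine 1-phosphate were above background for 5 of 7. Spns2, the endothelial exporter, was at 8.77, 8.90 and 8.89 in mice 1, 2 and 3. Mfsd2b, the exporter of red cells and platelets, was at 2.61, 2.60 and 2.47, above background in mouse 1 only and by 0.03. Its values in mice 1 and 2 nearly coincided, and that of mouse 2 lay above the threshold of mouse 1 (2.58) but below its own (2.91). Of 6 erythroid and platelet markers 2 were above background in each mouse and the globin gene Hba-a1 was below it in each. The summed level of these markers was 5.90, 5.22 and 5.29 (log2) in mice 1, 2 and 3, and their part in the values of Mfsd2b was not tested. Apom encodes the carrier of sphingosine 1-phosphate on high-density lipoprotein, which is made in liver and proximal tubule. It was at 2.39, 2.56 and 3.33, above background in mouse 3 only, where the proximal tubule markers were highest as well (summed level 11.57, against 9.91 and 10.25). Their part in the value of Apom was not tested. Abcg2, a multidrug transporter gene, had the single unadjusted p under 0.05 (adjusted p = 0.86 by limma), with 9.27, 9.25 and 10.17. Both Apom and Abcg2 were picked after their values were seen.

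Other phosphatases of the lipid were detected besides Sgpp1. Of this list, 3 of 4 were above background. Plpp1 encodes a lipid phosphate phosphatase of the cell surface and was at 13.35, 13.02 and 13.27 in mice 1, 2 and 3, with mouse 2 lowest. Sgpp2, the paralogue of Sgpp1, was at 2.30, 2.96 and 2.20 and passed the threshold in mouse 2 only, by 0.04.

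Genes that supply sphingosine and ceramide were above background in most cases, beside a share of 58.3% over all genes. Of 5 ceramidase genes, which release sphingosine from ceramide, 4 were above background, among them the acid ceramidase gene Asah1 (10.69 ± 0.09, n = 3) and the neutral ceramidase gene Asah2 (7.68 ± 0.05). Of 5 ceramide synthase genes 4 were, with Cers2 at 8.53 ± 0.11 and Cers3 below background at 1.92 ± 0.07. Of 9 genes of de novo synthesis 6 were, including the serine palmitoyltransferase subunit genes Sptlc1 (7.54 ± 0.21) and Sptlc2 (8.80 ± 0.19). Of 9 genes of sphingomyelin turnover 7 were, with the sphingomyelin synthase genes Sgms1 at 10.85 ± 0.22 and Sgms2 at 8.82 ± 0.04. All 6 genes of glycosphingolipid and ceramide phosphate metabolism were above background, such as the glucosylceramide synthase gene Ugcg (7.10 ± 0.23) and the glucosylceramidase gene Gba2 (5.96 ± 0.17). Both genes that use the lyase products were as well, Aldh3a2 (8.11 ± 0.12), an aldehyde dehydrogenase gene, and Etnk1 (10.70 ± 0.11), an ethanolamine kinase gene.

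All 15 measured genes of the G proteins and effectors downstream of the receptors were above background, with the lowest median SD of the 10 lists (0.07). That median is not matched for level either. The inhibitory G protein genes Gnai1 and Gnai2 were at 11.43 ± 0.18 and 12.07 ± 0.07 (SD, n = 3). Of 5 receptor genes for lysophosphatidic acid, a related lipid messenger, 2 were above background. Lpar1 was at 2.67, 2.72 and 2.91 in mice 1, 2 and 3, above background in mice 1 and 3 only. For Lpar1, mouse 2 was brighter than mouse 1, but its threshold was higher (2.91, against 2.58). Lpar2 was below background in all mice at 1.85 ± 0.21.

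**Figure D5:**
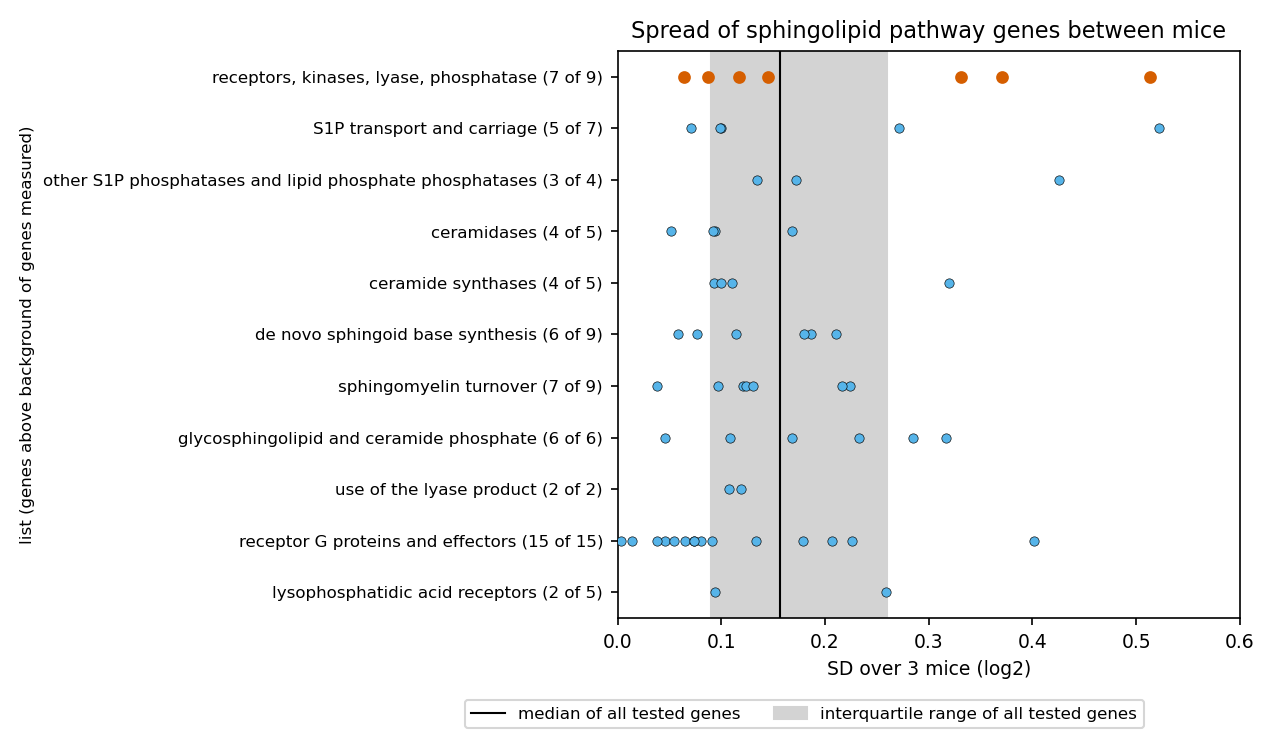
The SD over 3 mice (log2) is shown for each gene above background in the 9 sphingosine phosphate genes (orange, top row) and in 10 lists of related genes (blue), with the median of all tested genes as a line (0.157) and their interquartile range in grey (0.0904 to 0.260). Most genes lie left of or inside the grey band, and S1pr1 and Abcg2 have the highest values drawn.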

How the data were processed

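Expression was measured on 1 Affymetrix array for each of 3 mice. The deposited values were summarised with GCRMA, per the submitters' processing notes, whose version and choice of arrays normalised together are not given in the sources used here. The log2 scale of the deposited values was inferred from their range (0.67 to 14.76). No further normalisation was applied, and 0 columns of per-sample values were left unused.

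Gene names came from the platform annotation: 34958 of 45101 have 1 gene, and the 932 with several were not used. The probe set with the highest mean stood for a gene. Genes above background on all 3 arrays (10610) entered the limma test of variance between mice (limma 3.58.1, statmod 1.5.0, R 4.3.3), with a trend on level, a robust fit, a one-sided upper tail and Benjamini-Hochberg adjustment at 0.05. Precision is limited by signal over background and by the few arrays. Single arrays per mouse give p-values for spread that includes technical error. No correlation across samples was computed, since 3 samples are fewer than 6. Promoter windows came from RefSeq, and no coordinates are given for probe sets, as no build is named for the arrays.

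The members and lists were chosen with earlier results of these data known. The genes named are all members with every probe set, the first 2 genes with a probe set in each pathway list, those with a 2-fold range or a call, and the first 2 of marker lists where a result turns on them; others were chosen after their values were seen, as said beside them. Alternatives were the mean over probe sets, quantile normalisation, centring, other background thresholds, no filter, no trend and robust fit, and each mouse left out; 1 threshold common to all arrays was added after seeing the data.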

Additional observations from a re-analysis of the deposited data

How the results depend on the processing

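Over the 11 alternatives, none of which gave a member a 2-fold range or a call in the limma test, the adjusted p of members ranged from 0.91 to 0.999. The count of members above background stayed at 7 with quantile normalisation, centring, the mean over probe sets, a common threshold or any mouse left out, and was 8 with the threshold at the 90th percentile and 6 with it at the highest olfactory or vomeronasal receptor probe set. The median SD of the 9 members was 0.145, 0.112 to 0.162 with 1 mouse left out and 0.204 with the mean over probe sets. Of 54 SDs of single members, 3 moved by at least the SD itself: S1pr3 with the mean over its probe sets (0.17, against 0.06), Sphk1 after centring (0.07, against 0.02) and Sphk1 without mouse 1 (0, a tie). Over all tested genes, the count with a 2-fold range was 319 to 371 with 1 mouse left out, against 630, as fewer samples give smaller ranges. No paired analysis was possible because all arrays belong to 1 group. Calls near background (S1pr4, S1pr5) depend on the threshold, and a null call in the variance test, which called no gene, says nothing about evenness.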
